A study of Homo sapiens with 12 samples.

Results

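The miR-15/16 family was examined together with miR-424 and miR-503 in small RNA libraries of PANC-1 and AsPC-1 cells. The 10 members were taken by name from the count files and not by their values: the 7 mature miRNAs of the 5p arm hsa-mir-15a-5p, hsa-mir-15b-5p, hsa-mir-16-5p, hsa-mir-195-5p, hsa-mir-497-5p, hsa-mir-424-5p and hsa-mir-503-5p, and the 3p arms hsa-mir-15b-3p, hsa-mir-16-2-3p and hsa-mir-424-3p, written miR below. In all, 1733 mature miRNAs were listed in at least 1 library, and the 10 members were listed in each of the 12 libraries.

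AsPC-1 was derived from the ascites of a patient with pancreatic cancer and PANC-1 from a primary pancreatic tumor, and both are human pancreatic ductal adenocarcinoma (PDAC) lines. In each line, 3 control libraries were compared with 3 libraries of cells transfected with siRNA against MYEOV (siMYEOV), a gene first found overexpressed in myeloma. Lipofectamine was the transfection reagent, and RNA was taken 48 h after transfection per the labels, whereas the methods give an earlier time. The labels call the controls untreated, whereas the protocol names a negative-control siRNA, so whether control cells were transfected is not settled. The protocol names a pair of siRNAs against MYEOV without tying a library to either, and the number 1 to 3 of a knockdown library could stand for an siRNA or a replicate. The methods state in general that experiments were repeated independently, without naming the sequenced libraries, and nothing in the labels says that the libraries of a group came from separate cultures. If they did not, the p-values below measure a spread that is technical. The degree of MYEOV knockdown was not measured in these libraries, which count miRNAs.

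A miRNA is cut from a hairpin precursor that holds a 5p and a 3p arm, and the arm loaded into Argonaute guides it to mRNAs that pair with bases 2 to 8 of the miRNA, the seed. The arm that is kept less often is called the passenger. MiRNAs of the miR-15/16 family repress mRNAs of cyclins, cyclin-dependent kinases and BCL2, and are known for holding cells in G1 and for their loss in chronic lymphocytic leukemia. MiR-424 and miR-503 are made together from the X chromosome and repress an overlapping set of cell-cycle mRNAs.

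The mature sequences are shown because the seed is what groups the members, and the 2 miRNAs of a pair such as miR-16-5p and miR-195-5p can be told apart in reads only by the bases after it. They were taken from RefSeq (GRCh38.p14), in which each of the 10 members had an entry, and capitals mark the seed. The 6 members that share the seed AGCAGCA are the following.
miR-15a-5p: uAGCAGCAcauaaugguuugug
miR-15b-5p: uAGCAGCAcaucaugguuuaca
miR-16-5p: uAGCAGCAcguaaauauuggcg
miR-195-5p: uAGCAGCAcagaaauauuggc
miR-497-5p: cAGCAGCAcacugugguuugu
miR-424-5p: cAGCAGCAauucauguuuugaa

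MiR-503-5p differs from miR-16-5p in the last base of the seed (A8G, counted from 1 at the 5′ end, miR-16-5p first). Each 3p arm has a seed of its own, and that of miR-16-2-3p is also held by miR-195-3p, the other arm of the miR-195 hairpin. The 3p arm of the second hairpin that yields miR-16-5p, miR-16-1-3p, differs from miR-16-2-3p within the seed (A4G).
miR-503-5p: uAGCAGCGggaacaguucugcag
miR-15b-3p: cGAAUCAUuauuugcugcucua
miR-16-2-3p: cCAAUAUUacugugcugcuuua
miR-195-3p: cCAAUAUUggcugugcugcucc
miR-16-1-3p: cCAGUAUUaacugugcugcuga
miR-424-3p: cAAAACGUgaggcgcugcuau

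MiR-195-5p and miR-16-5p differed at 2 of the 21 bases compared, G10A and U11G. The other members of the seed group differed from miR-16-5p at 6 (miR-15a-5p), 8 (miR-15b-5p) and 10 bases (miR-497-5p and miR-424-5p).

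The hairpins lie in 4 clusters on GRCh37, the build the authors mapped to. MIR15B (chr3:160122376-160122473) and MIR16-2 (chr3:160122533-160122613) lie on the plus strand within SMC4, outside its exons. MIR16-1 (chr13:50623109-50623197) and MIR15A (chr13:50623255-50623337) lie on the minus strand within the lncRNA gene DLEU2, where MIR15A overlaps annotated exons and MIR16-1 does not. MIR195 (chr17:6920934-6921020) and MIR497 (chr17:6921230-6921341) lie in an exon of the lncRNA gene MIR497HG, on the minus strand. MIR503 (chrX:133680358-133680428) lies within the lncRNA gene MIR503HG and overlaps an exon of it, on the minus strand. MIR424 (chrX:133680644-133680741), on the same strand, overlaps exons of MIR503HG only in part, since that gene is annotated to end at 133680672. MiR-16-5p is cut from both MIR16-1 and MIR16-2, and its reads cannot be assigned to 1 of them, whereas the 3p arms differ and can.

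The hairpin of miR-16-2 is shown with its arms in capitals because its 3p arm is the member that changed in both lines.
MIR16-2: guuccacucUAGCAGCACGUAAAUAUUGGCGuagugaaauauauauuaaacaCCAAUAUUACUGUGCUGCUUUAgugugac

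The AsPC-1 libraries held 5587106 to 7311783 counted reads and the PANC-1 libraries 3805084 to 5049361, and in AsPC-1 the largest knockdown library (5934261 reads) had fewer reads than the smallest control (6463528 reads). The floor used here was 3 reads, or 0.410 to 0.788 CPM, which are read counts made comparable between libraries by their size, and it covers counting error only. AsPC-1 control library 1 stood apart. Its counts differed from those of the other AsPC-1 controls with a chi-square per degree of freedom of 277 and 225, against 26.9 between those other controls and 9.40 to 69.7 between libraries of the remaining groups. Values without it are given beside many of the results that it moves. The summed level of the 5 epithelial markers of the miR-200 family was 51541 to 62093 CPM in AsPC-1 and 201 to 226 CPM in PANC-1, and the 2 acinar markers together reached at most 0.459 CPM in any library. The 4 stromal and muscle markers together held 4.57 to 6.55 CPM in AsPC-1 and 55.5 to 64.1 CPM in PANC-1, the 4 leukocyte markers 6.96 to 12.8 and 0.230 to 0.963 CPM, and the 3 erythroid markers 443 to 590 and 370 to 508 CPM. The 2 endothelial markers, both arms of miR-126, held 1791 to 2320 CPM in AsPC-1 and 1037 to 1359 CPM in PANC-1, the hepatocyte marker 5.29 to 11.3 and 1.93 to 5.01 CPM, and the neuronal marker at most 0.182 and 0.685 CPM. The part of these differences in the results below was not tested.

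The first comparison asked how high each member stood in each line without the knockdown. MiR-195-5p, miR-497-5p, miR-424-5p, miR-424-3p and miR-503-5p, the members of the clusters on chromosomes 17 and X, were lower in AsPC-1 than in PANC-1, whereas miR-15a-5p was higher. MiR-15b-5p passed as lower, a direction that upper-quartile scaling turned, and miR-16-5p, miR-16-2-3p and miR-15b-3p did not pass the test. Thus 7 of the 10 members passed an adjusted p under 0.05 in edgeR's quasi-likelihood test, 1 of them higher and 6 lower in AsPC-1, miR-15b-5p included. Of the 627 miRNAs tested, 82.8% passed, 36% higher and 46.7% lower in AsPC-1, so a share of 7 in 10 does not set the members apart. The same 7 members had groups that did not overlap, as had 82.1% of all miRNAs tested, 35.6% higher and 46.6% lower in AsPC-1. The median log2 fold change (LFC, AsPC-1 over PANC-1) was -1.34 over the members and -0.27 over all miRNAs tested.

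MiR-497-5p was the member that differed most between the lines in the main fit, an order that rests on AsPC-1 control 1. Without that library, the LFC was -4.18 for miR-497-5p and -4.55 for miR-195-5p. The normalized level of miR-497-5p was 2.72, 4.62 and 4.66 CPM in the AsPC-1 controls and 93.2, 81.7 and 83.4 CPM in the PANC-1 controls. Each AsPC-1 library lay far below each PANC-1 library, with an LFC of -4.41 (SE 0.19, adjusted p = 9.39e-12).

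MiR-195-5p, cut from the neighboring hairpin, stood at 4.93, 2.55 and 1.71 CPM in the AsPC-1 controls, from 29, 16 and 11 reads, and at 56.7, 49.3 and 47.6 CPM in the PANC-1 controls. The LFC was -4.07 (SE 0.25, adjusted p = 1.07e-09). In AsPC-1, both miRNAs of this cluster were above the floor of 3 counts. Its other arm, miR-195-3p, was lower in AsPC-1 by a like amount (LFC -4.05), whereas miR-497-3p had at most 2 reads in any library.

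The 3 members from the X chromosome were lower in AsPC-1 by a smaller amount. MiR-424-3p held 46.2, 65.7 and 56.5 CPM in the AsPC-1 controls against 401, 437 and 415 CPM in the PANC-1 controls (LFC -2.89, SE 0.13, adjusted p = 2.20e-11). MiR-424-5p held 27.7, 15.5 and 15.8 CPM against 116, 92.6 and 86.0 CPM (LFC -2.32, SE 0.20, adjusted p = 5.55e-08). For both arms of this hairpin, no AsPC-1 library reached the lowest PANC-1 library. MiR-503-5p followed with 19.4, 15.8 and 12.4 CPM in AsPC-1 and 94.6, 82.1 and 79.0 CPM in PANC-1 (LFC -2.43, SE 0.16, adjusted p = 2.61e-09). Leaving out any 1 library, the LFCs of the 5 members from chromosomes 17 and X lay between -4.55 and -2.13, and each passed. With upper-quartile scaling, those of miR-424-5p and miR-503-5p were -1.41 and -1.51 and passed.

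The X chromosome also encodes miR-450a, miR-450b and miR-542, which are neighbors of miR-424 and miR-503. All 5 of their mature miRNAs that were tested were called lower in AsPC-1, as were 46.7% of all miRNAs tested. Their LFCs were -5.59 (miR-450a-1-3p), -5.56 (miR-450b-5p), -5.34 (miR-542-3p), -4.81 (miR-450a-5p) and -3.83 (miR-450a-2-3p). MiR-450b-5p held 7.98 to 13.5 CPM in the AsPC-1 controls and 462 to 487 CPM in the PANC-1 controls, with no overlap. MiR-450a-1-3p was at 0 reads in 2 of the AsPC-1 controls and had 2 reads in the other, and miR-450a-2-3p had 1, 1 and 3 reads there, so the LFCs of both depend on the prior count and are no bounds. Both passed the filter on low counts only through the PANC-1 controls, so their direction is no separate support.

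MiR-15a-5p, whose gene is next to MIR16-1, was the only member that passed in the other direction. Its level was 95.8, 60.4 and 55.8 CPM in the AsPC-1 controls and 36.9, 33.6 and 30.9 CPM in the PANC-1 controls. The groups did not overlap, although AsPC-1 control 1 lay well above the other AsPC-1 controls, and the LFC was 1.06 (SE 0.19, adjusted p = 0.000117) with it and 0.81 (adjusted p = 9.91e-06) without it. Upper-quartile scaling gave 1.97. MiR-16-1-3p, from the same cluster, was also higher in AsPC-1 (LFC 0.71), at 20.6 to 30.9 CPM against 14.3 to 16.1 CPM.

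MiR-16-5p had the highest mean of the members in the controls of both lines, although miR-16-2-3p was higher in 2 of the 3 PANC-1 controls. It stood at 1753, 1169 and 1174 CPM in the AsPC-1 controls and at 1306, 1144 and 1079 CPM in the PANC-1 controls. These ranges overlapped (LFC 0.21, adjusted p = 0.180). With the replicate number as a block, the LFC was 0.19 and passed (adjusted p = 0.0486), so that 8 of the 10 members were called. It also passed with all 12 libraries in one fit (LFC 0.37, adjusted p = 0.00650) and with upper-quartile scaling (LFC 1.13, adjusted p = 4.35e-07). Without the block, the call depended on 1 library: the LFC was 0.37 (adjusted p = 0.0444) without AsPC-1 control 3, 0.32 (adjusted p = 0.0133) without PANC-1 control 1, and 0.03 (adjusted p = 0.821) without AsPC-1 control 1. MiR-16-2-3p also overlapped between the lines (997 ± 158 and 1083 ± 72.1 CPM, SD, n = 3 each), with an LFC of -0.12 (adjusted p = 0.353) that became 0.01 without AsPC-1 control 1.

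MiR-15b-5p stood at 447 ± 21.5 CPM in AsPC-1 and 576 ± 10.4 CPM in PANC-1 (SD, n = 3 each). The LFC of -0.36 (adjusted p = 0.00238) turned to 0.56 (adjusted p = 4.67e-05) with upper-quartile scaling. MiR-15b-3p held 378 ± 22.3 and 358 ± 25.5 CPM (LFC 0.08, adjusted p = 0.469). Upper-quartile scaling moved the median LFC of all miRNAs by 0.92, total-count scaling by -0.34 and the scaling of all 12 libraries together by 0.14. Relative to shifts of this size, no direction can be given for miR-15b-5p, miR-15b-3p, miR-16-5p or miR-16-2-3p, and with upper-quartile scaling 345 miRNAs were called higher and 200 lower in AsPC-1 in place of 226 and 293. The signs of the other 6 members were the same under each scaling.

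**Figure D1:**
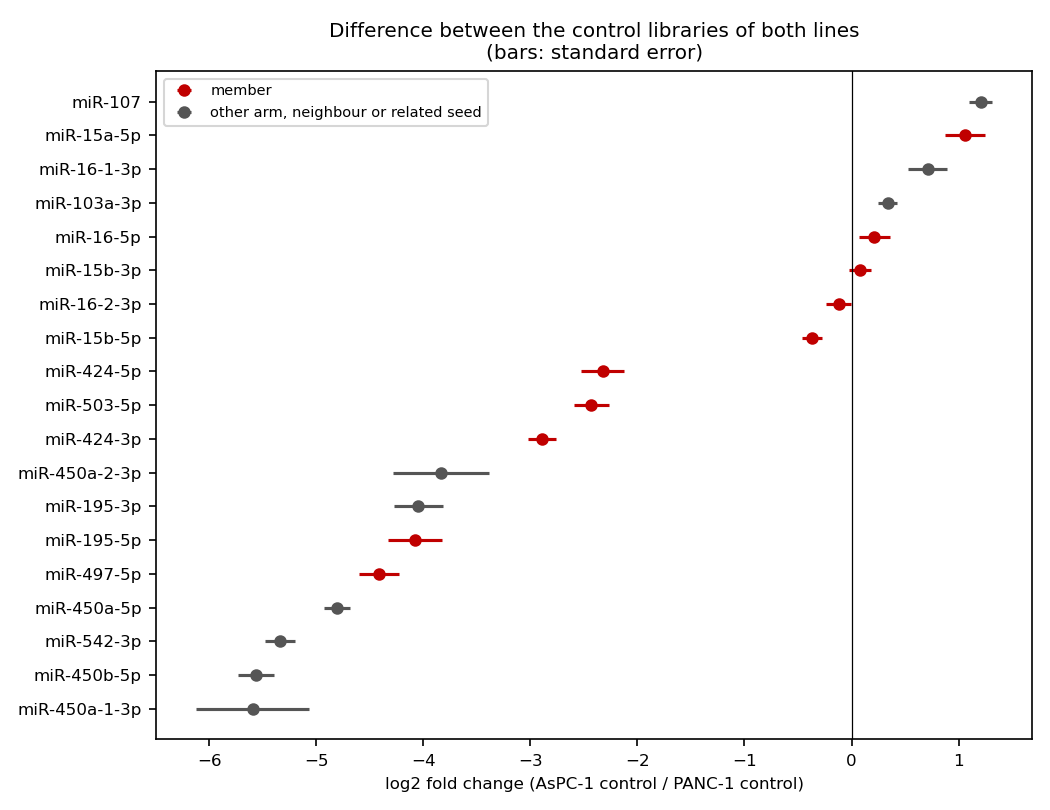
Log2 fold change of the control libraries of AsPC-1 over those of PANC-1 (horizontal axis) for the 10 members (red) and the 9 tested miRNAs of the companion list (grey), with bars of 1 standard error, 3 libraries per line. The members from chromosomes 17 and X and their neighbors lie between -5.59 and -2.32, and the others between -0.36 and 1.21.

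The order of the members by mean level in the controls differed between the lines, and since their lengths are 21 to 23 bases, counts per library were compared without a length correction. In AsPC-1, miR-16-5p was followed by miR-16-2-3p, miR-15b-5p, miR-15b-3p, miR-15a-5p, miR-424-3p, miR-424-5p, miR-503-5p, miR-497-5p and miR-195-5p. The neighbors miR-15a-5p and miR-424-3p overlapped in range, as did miR-424-5p and miR-503-5p, and miR-497-5p and miR-195-5p. In PANC-1, the order was miR-16-5p, miR-16-2-3p, miR-15b-5p, miR-424-3p, miR-15b-3p, miR-424-5p, miR-497-5p, miR-503-5p, miR-195-5p and miR-15a-5p. There, miR-16-5p overlapped with miR-16-2-3p, and miR-424-5p, miR-497-5p and miR-503-5p overlapped with each other. MiR-15a-5p had the lowest mean in PANC-1. In AsPC-1 its mean lay above that of miR-424-3p through control 1, and in the other 2 controls miR-424-3p was the higher.

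**Figure D2:**
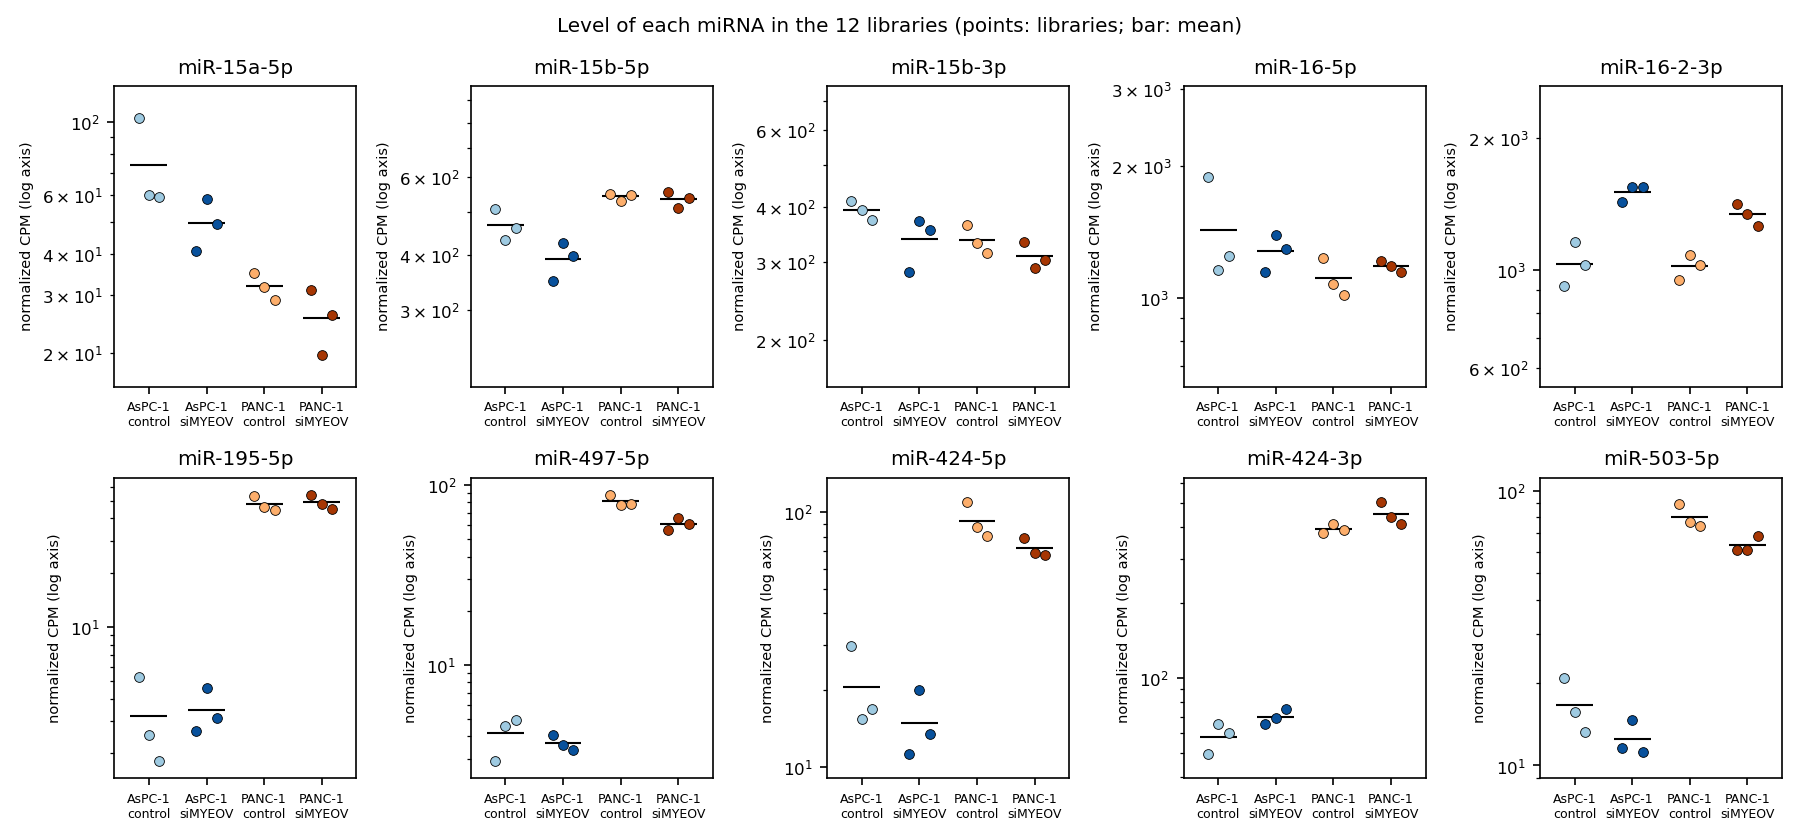
Normalized CPM (vertical axis, log scale, all 12 libraries scaled together) of the 10 members in each control and siMYEOV library of AsPC-1 and PANC-1; points are libraries and the bar is the group mean, 3 libraries per group. MiR-195-5p, miR-497-5p, miR-424-5p, miR-424-3p and miR-503-5p form separate levels in the 2 lines, and miR-16-2-3p is higher in the siMYEOV libraries of both.

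The second comparison asked which members changed when MYEOV was depleted in AsPC-1. MiR-16-2-3p, the 3p arm of MIR16-2, rose, and the other 9 members did not pass the test. Of the 498 miRNAs tested, 11.4% passed, 7.03% upwards and 4.42% downwards, against 1 of the 10 members, so the members as a list were called about as often as miRNAs at large. The median LFC (siMYEOV over control) was -0.11 over the members and -0.00467 over all miRNAs tested. The groups did not overlap for 4 of the 10 members, 2 higher and 2 lower after knockdown, and for 30.5% of all miRNAs tested, 16.9% higher and 13.7% lower.

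MiR-16-2-3p stood at 745, 1036 and 870 CPM in the controls and at 1402, 1302 and 1421 CPM after knockdown. Each knockdown library lay above each control, with an LFC of 0.64 (SE 0.10, adjusted p = 0.00110). Without control 1, which was the lowest, the LFC was 0.54 (adjusted p = 3.39e-06).

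MiR-16-5p, the other arm of that hairpin, did not follow. Its level was 1525, 1037 and 1056 CPM in the controls and 1124, 1176 and 1189 CPM after knockdown. Control 1 was the highest of the 6 and the knockdown libraries lay between it and the other controls, with an LFC of -0.05 (SE 0.12, adjusted p = 0.837). Without control 1, the LFC was 0.16 (adjusted p = 0.0563), so its sign rests on that library.

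Among the other 3p arms, miR-424-3p held 40.2, 58.3 and 50.9 CPM in the controls and 64.3, 58.4 and 68.6 CPM after knockdown. The groups touched without overlapping, and the LFC of 0.36 (SE 0.13) had an adjusted p of 0.0992. Without control 1, the lowest library, the LFC was 0.23 (adjusted p = 0.110). It passed without control 2 (LFC 0.48, adjusted p = 0.0434) and with no other library left out. MiR-15b-3p overlapped between groups (335 ± 16.9 and 307 ± 24.1 CPM, SD, n = 3 each) with an LFC of -0.13 (adjusted p = 0.391).

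The remaining 5p arms had negative LFCs, except miR-195-5p. MiR-15a-5p held 83.4, 53.6 and 50.2 CPM in the controls and 40.0, 49.2 and 45.0 CPM after knockdown (LFC -0.48, SE 0.17, adjusted p = 0.0764). Control 1 was again the highest, and without it the LFC was -0.21 (adjusted p = 0.198). MiR-15b-5p went from 396 ± 13.0 to 355 ± 11.8 CPM with no overlap (LFC -0.16, SE 0.08, adjusted p = 0.243).

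MiR-424-5p held 17.4 ± 5.84 and 13.4 ± 3.09 CPM in the control and knockdown libraries (LFC -0.37, adjusted p = 0.336), and miR-503-5p 14.0 ± 2.83 and 11.4 ± 1.04 CPM (LFC -0.30, adjusted p = 0.336). Without control 1, their LFCs were -0.05 and -0.14. MiR-195-5p (LFC 0.22, SE 0.38, adjusted p = 0.778) and miR-497-5p (LFC -0.09, SE 0.31, adjusted p = 0.896) rested on 11 to 30 reads per library, and their errors were the largest among the members. Without control 1, their LFCs were 0.72 (adjusted p = 0.216) and -0.30 (adjusted p = 0.544), and those of miR-15b-5p and miR-15b-3p -0.12 (adjusted p = 0.214) and -0.12 (adjusted p = 0.315).

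In PANC-1, 4 of the 10 members passed the test. MiR-16-2-3p rose, as it had in AsPC-1, and miR-497-5p, miR-424-5p and miR-503-5p fell. Of the 551 miRNAs tested, 22% passed, 12.7% upwards and 9.26% downwards, against 1 and 3 of the 10 members. The groups did not overlap for 5 of the 10 members, 2 higher and 3 lower after knockdown, and for 36.7% of all miRNAs tested, 19.6% higher and 17.1% lower. The median LFC was -0.07 over the members and 0.03 over all miRNAs tested. Total-count scaling moved the median LFC of all miRNAs by -0.15 and turned the split of calls from 70 up and 51 down to 26 up and 117 down, whereas upper-quartile scaling gave 65 up and 29 down. The 4 called members had the same sign under each scaling. Some sums of markers of other cell types stood higher after knockdown. These sums did not overlap between control and knockdown libraries for the endothelial (1037 to 1208 and 1236 to 1359 CPM), erythroid (370 to 392 and 407 to 508 CPM) and hepatocyte markers (1.93 to 2.97 and 3.22 to 5.01 CPM). The endothelial sum rose through miR-126-3p (985 to 1163 and 1193 to 1306 CPM), whereas miR-126-5p overlapped (44.8 to 66.3 and 40.9 to 53.3 CPM). The erythroid sum was nearly all miR-486-5p (368 to 391 and 406 to 508 CPM), whereas miR-451a overlapped and miR-144-3p had at most 1 read. In AsPC-1, the groups overlapped for each marker list. The part of these markers in the results was not tested.

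MiR-16-2-3p stood at 1084, 1224 and 1167 CPM in the controls and at 1605, 1521 and 1440 CPM after knockdown. The groups were well apart, with an LFC of 0.39 (SE 0.08, adjusted p = 0.000929). It passed whichever library was left out, with LFCs of 0.33 to 0.43, and total-count scaling gave the smallest LFC of the alternatives, 0.25 (adjusted p = 0.0384). MiR-16-5p overlapped between groups, at 1409, 1219 and 1149 CPM against 1377, 1339 and 1308 CPM (LFC 0.09, SE 0.09, adjusted p = 0.454). With each library left out, its LFC was 0.01 to 0.17 and did not pass.

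MiR-497-5p fell, from 101, 87.1 and 88.7 CPM in the controls to 64.0, 73.9 and 69.8 CPM. No knockdown library reached the lowest control, and the LFC was -0.41 (SE 0.11, adjusted p = 0.00713). It passed with each library left out. MiR-195-5p, from the same host gene, overlapped between groups (50.7 to 61.1 CPM in the controls and 51.8 to 61.1 CPM after knockdown, LFC 0.02, SE 0.12, adjusted p = 0.919).

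Both 5p arms from the X chromosome also fell. MiR-424-5p went from 125, 98.8 and 91.5 CPM to 89.2, 78.4 and 77.8 CPM (LFC -0.36, SE 0.11, adjusted p = 0.0226). MiR-503-5p went from 102, 87.5 and 84.0 CPM to 69.2, 68.9 and 78.2 CPM (LFC -0.34, SE 0.11, adjusted p = 0.0279). In neither did the groups overlap, and control 1 was the highest library for both. The call of miR-424-5p was lost without control 1 (LFC -0.24, adjusted p = 0.102), without siMYEOV 2 (LFC -0.34, adjusted p = 0.0904) and without siMYEOV 3 (LFC -0.33, adjusted p = 0.145). That of miR-503-5p was lost without control 1 (LFC -0.26, adjusted p = 0.0740), without siMYEOV 1 (LFC -0.31, adjusted p = 0.0855) and without siMYEOV 2 (LFC -0.31, adjusted p = 0.114). Both were also lost with all 12 libraries in one fit (adjusted p = 0.155 and 0.103), and that of miR-503-5p with upper-quartile scaling (adjusted p = 0.0763).

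MiR-424-3p, the other arm of that hairpin, did not pass, at 433, 466 and 441 CPM in the controls and 573, 497 and 473 CPM after knockdown. The groups did not overlap, and the LFC was 0.20 (SE 0.09, adjusted p = 0.0938), and 0.0620 with total-count scaling. MiR-15a-5p (36.2 ± 3.49 and 29.1 ± 6.41 CPM, LFC -0.32, adjusted p = 0.125, and 0.0411 with total-count scaling), miR-15b-5p (616 ± 13.8 and 608 ± 26.5 CPM, LFC -0.02, adjusted p = 0.887) and miR-15b-3p (383 ± 30.1 and 352 ± 25.1 CPM, LFC -0.12, adjusted p = 0.332) overlapped between groups. With each library left out, the LFC of miR-15a-5p was -0.47 to -0.17 and did not pass.

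**Figure D3:**
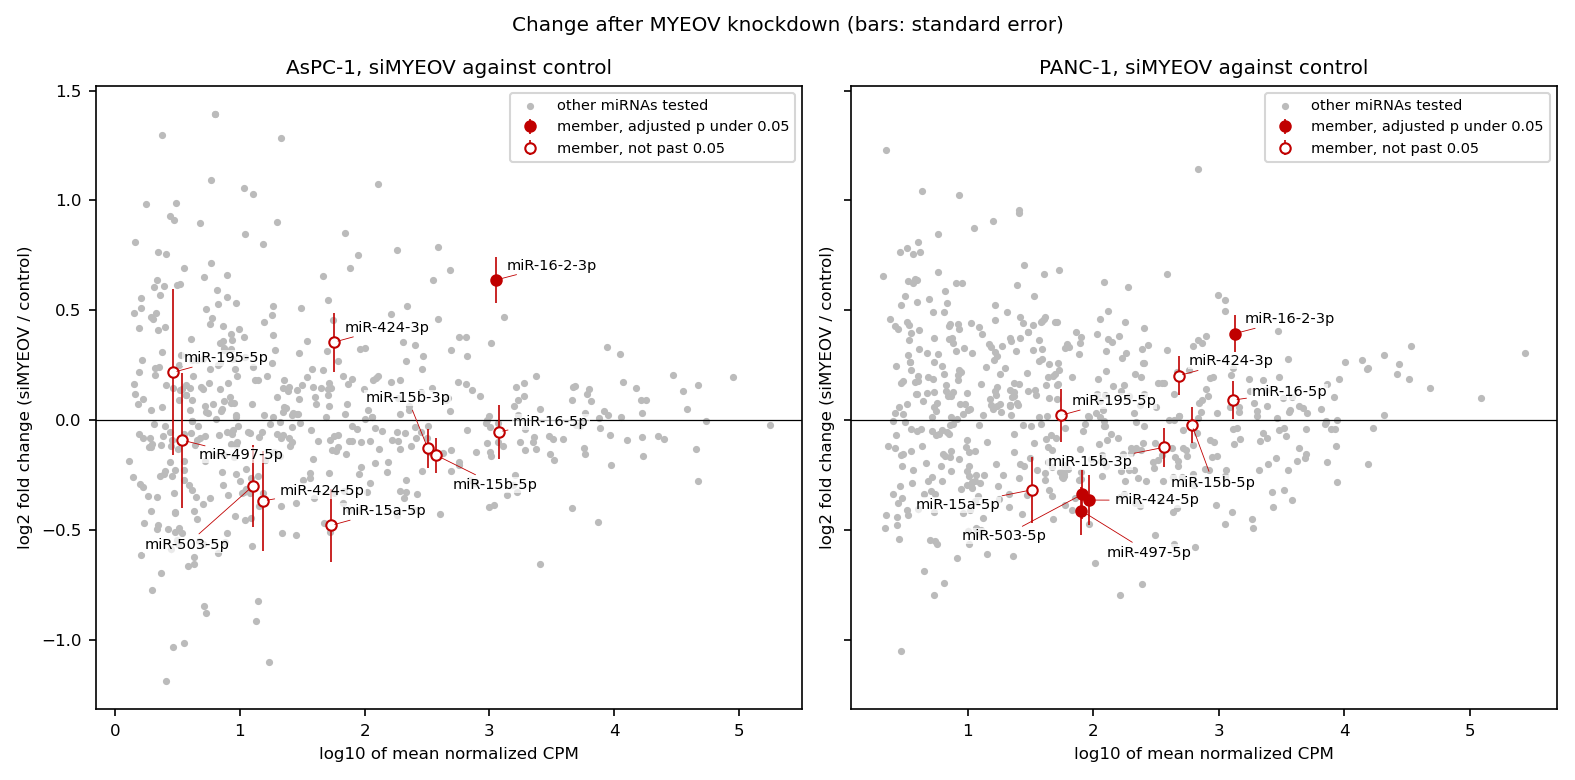
Log2 fold change of siMYEOV over control libraries (vertical axis) against the log10 of the mean normalized CPM (horizontal axis) in AsPC-1 (left) and PANC-1 (right), 3 libraries per group. Red points are members with bars of 1 standard error, filled where the adjusted p was under 0.05, and grey points are the other miRNAs tested; miR-16-2-3p is filled in both panels, at 0.64 and 0.39.

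An interaction term in the fit of the 12 libraries was used to ask whether the lines differed in the knockdown effect. None of the 10 members passed in edgeR's quasi-likelihood test, none had an unadjusted p under 0.05, and DESeq2's Wald test called 0 as well. Of the 650 miRNAs tested, 0.308% passed and 74 (11.4%) had an unadjusted p under 0.05. The difference in LFC, AsPC-1 minus PANC-1, had a median of -0.12 over all miRNAs tested and ranged from -0.26 (miR-15a-5p, SE 0.25) to 0.22 (miR-497-5p, SE 0.29) over the members. The low end rests in part on AsPC-1 control 1, without which the AsPC-1 LFC of miR-15a-5p was -0.21. For miR-16-2-3p the difference was 0.15 (SE 0.14, adjusted p = 0.696), for miR-424-5p -0.10 (SE 0.26, adjusted p = 0.948) and for miR-503-5p -0.06 (SE 0.22, adjusted p = 0.974). DESeq2 size factors, total-count scaling and DESeq2's Wald test moved the median of all miRNAs by 0.16 to 0.23 and gave the last 2 members positive differences, of 0.0603 to 0.13 and 0.10 to 0.17, and miR-16-2-3p 0.31 to 0.38, so no direction is given for miR-424-5p or miR-503-5p. With these errors, the calls of miR-497-5p, miR-424-5p and miR-503-5p in PANC-1 are not shown to be particular to that line.

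The ratio of 3p to 5p reads within a library does not depend on the scaling of the libraries, and it was compared for the 3 hairpins of which both arms are members. For miR-16-2-3p over miR-16-5p, it was 0.489, 0.998 and 0.823 in the AsPC-1 controls and 1.25, 1.11 and 1.20 after knockdown. In PANC-1 it was 0.770, 1.00 and 1.02 in the controls and 1.17, 1.14 and 1.10 after knockdown. Hence in both lines each knockdown library had more reads of miR-16-2-3p than of miR-16-5p, and each lay above the controls. The difference in mean log2 ratio was 0.68 (AsPC-1) and 0.30 (PANC-1). A two-sided exact permutation test gave p = 0.1 in each line, the smallest that 3 libraries against 3 can give, and 0.2 after Benjamini-Hochberg adjustment over the 6 comparisons. The 5p reads include those of MIR16-1, so this is not the arm ratio of 1 hairpin.

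For miR-424-3p over miR-424-5p, the ratio was 3.47, 4.72 and 4.82 in the PANC-1 controls and 6.43, 6.34 and 6.08 after knockdown. The groups did not overlap, with a log2 difference of 0.55 (exact permutation p = 0.1, adjusted 0.2). In AsPC-1 it was 1.67, 4.25 and 3.57 in the controls and 5.83, 3.46 and 5.59 after knockdown, which overlapped (log2 difference 0.72, exact permutation p = 0.3, adjusted 0.36). The 3p arm of MIR424 was thus the more abundant arm in all 12 libraries.

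The ratio of miR-15b-3p to miR-15b-5p overlapped between groups in both lines, at 0.846 ± 0.0557 and 0.864 ± 0.0399 in the AsPC-1 control and knockdown libraries (log2 difference 0.03, exact permutation p = 0.8, n = 3 each) and 0.621 ± 0.0423 and 0.578 ± 0.0203 in PANC-1 (log2 difference -0.10, exact permutation p = 0.2, n = 3 each). The ratio was higher in each AsPC-1 library than in each PANC-1 library. In both lines, control 1 had the lowest ratio of its group for the MIR16-2 and MIR424 pairs. Without it, the log2 differences were 0.38 in AsPC-1 and 0.17 in PANC-1 for miR-16-2-3p over miR-16-5p, and 0.31 and 0.40 for miR-424-3p over miR-424-5p.

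**Figure D4:**
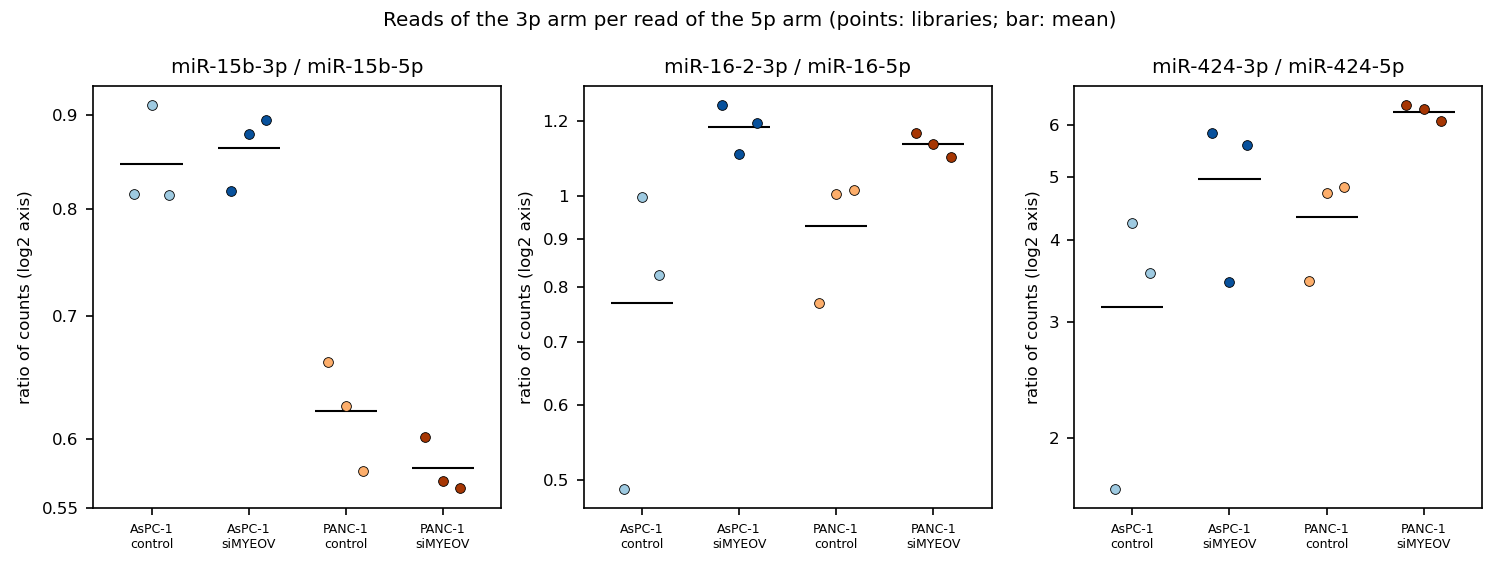
Reads of the 3p arm per read of the 5p arm (vertical axis, log2 scale) for 3 pairs of arms in the 4 groups; points are libraries and the bar is the group mean, 3 libraries per group. The siMYEOV libraries lie above the controls for miR-16-2-3p over miR-16-5p in both lines and for miR-424-3p over miR-424-5p in PANC-1.

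The 6 members with the seed AGCAGCA together held 0.170% ± 0.0383 of the counted reads in the AsPC-1 controls and 0.158% ± 0.00771 after knockdown, and 0.228% ± 0.0255 and 0.208% ± 0.0116 in PANC-1 (SD, n = 3 each). The ranges of control and knockdown libraries overlapped in both lines, in AsPC-1 through control 1. That library was at 0.215% and the other 2 controls at 0.148% each, whereas the knockdown libraries held 0.149%, 0.164% and 0.160%, so without control 1 each knockdown library lay above each control and the direction of the means turned. MiR-6838-5p, the only other miRNA of the RefSeq table on the companion list with this seed, had at most 3 reads in a library and was not included. A share of the counted reads rests on total counts. That scaling moved the median LFC of all miRNAs by -0.15 for the PANC-1 knockdown and by -0.34 between the lines, and the shares are not corrected for it.

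MiR-16-5p made up 71.1% of the reads of the seed group in the AsPC-1 controls and 58.1% in the PANC-1 controls, and miR-15b-5p 23.9% and 28.6%. MiR-424-5p, miR-497-5p and miR-195-5p held 1.01%, 0.222% and 0.154% in AsPC-1, whereas in PANC-1 they held 4.83%, 4.26% and 2.53%. After knockdown in PANC-1, the share of miR-424-5p was 3.74% and that of miR-497-5p 3.17%, each below its range in the controls, while miR-195-5p was at 2.55%. In AsPC-1, control 1 had a larger share of miR-16-5p (74.4%) than the other controls (69.3% and 69.6%) and a smaller one of miR-15b-5p (20.0% against 25.8% in each). MiR-15a-5p held 3.65% and 2.82% in the control and knockdown libraries of AsPC-1, and 1.67% and 1.33% in those of PANC-1. Its share was also below its control range in both lines, at 2.62% to 3.06% against 3.31% to 4.07% in AsPC-1 and 1.04% to 1.56% against 1.62% to 1.71% in PANC-1. The share of miR-16-5p was above its control range in PANC-1 (60.8% to 62.4% against 56.6% to 59.6%).

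**Figure D5:**
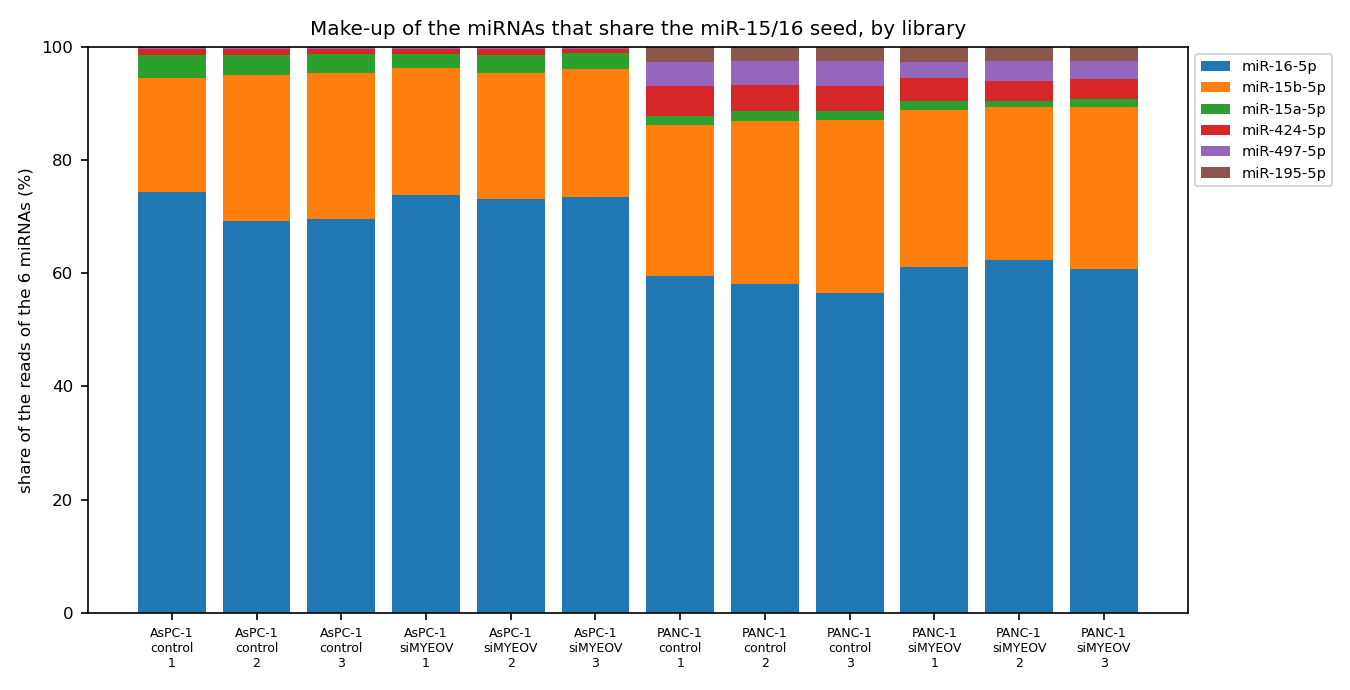
Share of each of the 6 members with the seed AGCAGCA among their summed reads (vertical axis, percent) in each of the 12 libraries. MiR-16-5p and miR-15b-5p fill most of each bar, and miR-424-5p, miR-497-5p and miR-195-5p form a visible band in the PANC-1 libraries.

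The companion list held 17 other miRNAs, the other arms of the same hairpins, the neighbors on the X chromosome and the miRNAs of the same or a related seed. Of these, 7 passed the filter on low counts in AsPC-1, as did 9 in PANC-1. In AsPC-1, 0 of 7 passed in edgeR, 2 had an unadjusted p under 0.05, and DESeq2's Wald test called miR-103a-3p (adjusted p = 0.0491). Of all 498 miRNAs tested there, 11.4% passed, and before adjustment 123 (24.7%) were under 0.05. In PANC-1, 3 of 9 passed, 1 upwards and 2 downwards, against 22% of all miRNAs tested, 12.7% upwards and 9.26% downwards, and with 9 miRNAs these counts do not set the list apart.

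MiR-195-3p, which shares the seed of miR-16-2-3p, rose in PANC-1 from 34.1, 45.1 and 44.5 CPM to 72.9, 63.9 and 62.3 CPM (LFC 0.69, SE 0.13, adjusted p = 0.000185). The groups did not overlap, and it passed with each library left out. In AsPC-1 it held 2.05 ± 0.505 and 3.86 ± 0.463 CPM from 11 to 26 reads (LFC 0.91, SE 0.31, adjusted p = 0.0738). MiR-16-1-3p, whose seed differs by A4G, had LFCs of 0.11 in PANC-1 (adjusted p = 0.674) and 0.04 in AsPC-1.

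MiR-103a-3p and miR-107, whose seed GCAGCAU begins with the last bases of the miR-15/16 seed (GCAGCA) and then differs from the family, fell in PANC-1. MiR-103a-3p went from 9672 ± 311 to 7974 ± 603 CPM (LFC -0.28, SE 0.09, adjusted p = 0.0196), and miR-107 from 701 ± 63.3 to 571 ± 15.4 CPM (LFC -0.30, SE 0.09, adjusted p = 0.0137). These miRNAs differ at the end of their sequences, and reads cut short there could be shared between them. The call of miR-103a-3p was lost without siMYEOV 1 (adjusted p = 0.0644) or siMYEOV 2 (adjusted p = 0.119), and that of miR-107 without siMYEOV 2 (adjusted p = 0.0808) or siMYEOV 3 (adjusted p = 0.0626). Upper-quartile scaling ended both calls (adjusted p = 0.170 and 0.0816), and all 12 libraries in one fit ended that of miR-107 (adjusted p = 0.0540). In AsPC-1, the LFCs were -0.21 (adjusted p = 0.0764) and -0.12 (adjusted p = 0.411). Without control 1, miR-103a-3p passed (LFC -0.18, adjusted p = 0.00449), whereas the LFC of miR-107 shrank to -0.04. MiR-103a-3p also passed with all 12 libraries in one fit (LFC -0.31, adjusted p = 0.0232).

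The neighbors of miR-424 and miR-503 on the X chromosome did not pass in PANC-1. MiR-542-3p held 229 ± 13.2 and 196 ± 8.93 CPM (LFC -0.22, adjusted p = 0.0725), and miR-450b-5p 511 ± 11.0 and 443 ± 38.1 CPM (LFC -0.21, adjusted p = 0.0827). Their groups did not overlap, nor did those of miR-450a-5p (LFC -0.11). The groups overlapped for miR-450a-2-3p (LFC 0.49, adjusted p = 0.211) and miR-450a-1-3p (LFC -0.21, adjusted p = 0.614).

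The miRNAs whose levels were most like those of 4 members were found by Pearson's r of log2 CPM over the 12 libraries, after subtracting the mean of each line. They share libraries and scaling with the members, and r is a description. For miR-16-5p these were miR-28-5p (r = 0.932), miR-642a-5p (0.915) and miR-589-5p (0.900). For miR-15b-5p they were miR-574-3p (0.917), miR-210-3p (0.909) and miR-671-5p (0.900). For miR-424-5p they were miR-194-5p (0.965), miR-362-5p (0.959) and miR-18a-5p (0.953), and for miR-503-5p they were miR-362-5p (0.905), miR-18a-5p (0.901) and miR-361-5p (0.900). Among the members, the highest r were those of miR-424-5p with miR-15a-5p (0.914), miR-16-2-3p with miR-424-3p (0.900), miR-424-5p with miR-503-5p (0.887), miR-15a-5p with miR-503-5p (0.868) and miR-15a-5p with miR-15b-5p (0.866). The lowest were those of miR-503-5p with miR-424-3p (-0.809) and miR-16-2-3p (-0.792), and of miR-15a-5p with miR-16-2-3p (-0.709). These values rest in part on AsPC-1 control 1. Over the other 11 libraries, a choice made after seeing the data, the r of miR-16-5p with miR-589-5p was 0.641 and those of the other 11 pairs above lay between 0.803 and 0.925, while the 5 highest pairs of members had r of 0.816, 0.864, 0.778, 0.737 and 0.751 in the order given, and the 3 lowest -0.638, -0.686 and -0.544. The lowest r among the members was then that of miR-16-2-3p with miR-497-5p (-0.955), which had been -0.432 over the 12 libraries.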

How the data were processed

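Small RNA libraries of AsPC-1 and PANC-1 were grouped by their labels, 3 control and 3 siMYEOV libraries per line, and none was left out. The authors trimmed the 3′ adapter, used Bowtie against hg19, retained reads of miRNA length that matched the genome perfectly, and deposited raw counts per mature miRNA. Each count is that of the most abundant sequence near the annotated 5′ end and of sequences that begin at the same base, and isoforms that begin at other bases are left out of it. A miRNA not listed in a library was set to 0.

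From these counts, DE miRNAs were computed with edgeR 4.0.16 in R 4.3.3 (filterByExpr with a minimum count of 10, TMM, quasi-likelihood F test, Benjamini-Hochberg adjustment over all miRNAs tested, threshold 0.05). Each line was fitted alone, the controls of both lines were compared, and the interaction was fitted over 12 libraries. The SE of an LFC is its absolute value over the square root of F. CPM values were normalized within the fit they are given for. Deviations of same-numbered controls of the 2 lines from their group means correlated with r = 0.31, 0.13 and 0.22 across miRNAs. Differently numbered controls were not compared and the labels give no pairing, so whether the numbers pair libraries is not settled. The blocked value is given where it changes a call between the lines. Arm ratios were compared with two-sided exact permutation tests. The scripts were tested on simulated data. Alternatives were other scaling factors, DESeq2 1.42.0, no filter, a single fit of all 12 libraries, the replicate block and leaving out each replicate. Libraries held 3805084 to 7311783 reads.

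The members, the companion list, the markers and the tests were chosen with earlier results of these data known. All 10 members are named, and of the companion list those that passed, with others beside them for comparison. Sequences came from RefSeq, and hairpins were placed on GRCh37 by exact match. The sequence of miR-542-3p was not used here.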

Additional observations from a re-analysis of the deposited data

How the results depend on the processing

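In AsPC-1, 1 member was called, and 2 with DESeq2's Wald test, with no filter and with all 12 libraries in one fit, where miR-15a-5p was added (adjusted p = 0.0394, 0.00647 and 0.0159). With each library left out in turn, 1 to 2 members and 24 to 102 of the miRNAs tested were called in place of 57, the highest count without control 1 and the lowest without siMYEOV 1. In PANC-1, 4 members were called. All 12 libraries in one fit called 2 members, and 67 miRNAs in place of 121. Upper-quartile scaling called 3, dropping miR-503-5p, and total-count scaling 5, adding miR-15a-5p (LFC -0.46, adjusted p = 0.0411). With each library left out, 2 to 4 members and 55 to 129 miRNAs were called. MiR-16-2-3p passed in both lines in each of these fits. For the interaction, 2 miRNAs were called, 10 with no filter, and 1 to 25 with each library left out, and 0 members passed in any of these fits.

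The sign changed for values that had not passed, except that of miR-15b-5p. In PANC-1, the LFC of miR-15b-5p was 0.0220 with upper-quartile scaling, and with total-count scaling those of miR-16-5p and miR-195-5p were -0.0540 and -0.12. Between the lines, upper-quartile scaling gave 0.56 for miR-15b-5p and 0.81 for miR-16-2-3p, total-count scaling -0.26 for miR-15b-3p and -0.12 for miR-16-5p, and all 12 libraries in one fit 0.0196 for miR-16-2-3p. The difference between the lines in the effect was 0.0642, 0.13 and 0.0603 for miR-424-5p and 0.10, 0.17 and 0.10 for miR-503-5p with DESeq2 size factors, total-count scaling and DESeq2's Wald test. Leaving out each library gave -0.16 to 0.16 for miR-16-5p, -0.0565 to 0.72 for miR-195-5p and -0.30 to 0.0514 for miR-497-5p in AsPC-1, -0.0496 to 0.0111 for miR-15b-5p and -0.0504 to 0.0920 for miR-195-5p in PANC-1, -0.25 to 0.0123 for miR-16-2-3p between the lines, and -0.35 to 0.22 for miR-424-5p, -0.0707 to 0.18 for miR-424-3p and -0.20 to 0.10 for miR-503-5p in the interaction. The causes were not tested.

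Between control and siMYEOV libraries of a line, the deviations of same-numbered libraries correlated with r of -0.17, -0.14 and 0.11 in AsPC-1 and 0.07, 0.03 and 0.15 in PANC-1. Differently numbered libraries were not compared, so these values do not settle whether the numbers pair the libraries. With the replicate block, 29 miRNAs and 1 member were called in AsPC-1 and 153 miRNAs and 4 members in PANC-1. Between the controls of the lines, where pairing is not settled either, the block added miR-16-5p (adjusted p = 0.0486) to the 7 members called and changed no other call of a member.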
